A study of Rattus norvegicus with 18 samples.

Results

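The matrix metalloproteinases of the rat colon were followed through colitis raised by TNBS (trinitrobenzene sulfonic acid), which couples to proteins of the mucosa and, given as an enema in ethanol, inflames the gut. The set held 10 genes, Mmp2, Mmp3, Mmp7, Mmp8, Mmp9, Mmp10, Mmp11, Mmp12, Mmp13 and Mmp14, taken as every probe set that the array annotation assigns to 1 gene symbol, that symbol being one of these. It came to 13 probe sets of the 31042 tested, and 10 of the 14217 genes with a single-symbol probe set. Of the 10 genes, 7 had 1 probe set, and Mmp2, Mmp9 and Mmp14 had 2, of which the one with the higher mean over all arrays stood for the gene.

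Each of 18 rats gave 1 Affymetrix rat genome array of full-thickness colon, in which mucosa, muscle, vessels and infiltrating leukocytes were homogenised together. The TNBS groups were 3 rats each at day 2, 5, 7 and 14 after a single rectal dose of TNBS (10 mg, in 50% ethanol), chosen among the treated rats by myeloperoxidase activity, loss of body weight and the ratio of colon weight to length, so a strong neutrophil signal was partly built into these groups. The control group was 6 healthy rats given a saline enema, with no sampling day stated. No group received ethanol alone, so effects of ethanol and of TNBS cannot be told apart, and strain, sex and age are not stated in the labels. The series' design text names Trizol and affinity columns for the RNA, but sample by sample Trizol is entered for TNBS rats and no more than a technical manual for controls, so any difference in extraction and the treatment cannot be told apart. Nothing says whether the animals came from 1 experiment, and p-values measure the spread between these arrays.

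Matrix metalloproteinases are zinc enzymes that cut collagens, elastin, proteoglycans and many signalling proteins outside the cell. Most are made as inactive precursors, are switched on when their propeptide is cut by other proteases, and are held in check by the tissue inhibitors of metalloproteinases and by alpha-2-macroglobulin. In the inflamed gut some are carried in by neutrophils and macrophages, and others are made in place by stromal cells under interleukin 1 and tumour necrosis factor, through transcription factors such as AP-1.

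In the RefSeq table of rat genes, 6 of the 10 members lay in 1 stretch of chromosome 8, in the order Mmp13, Mmp12, Mmp3, Mmp10, Mmp8 and Mmp7, with Mmp1b, Mmp1, Mmp27, Mmp20 and 2 pseudogenes between them. The other 4 lay on chromosome 19 (Mmp2), chromosome 3 (Mmp9), chromosome 20 (Mmp11) and chromosome 15 (Mmp14). Promoters from RefSeq were at hand for 7 members. They are shown because the neighbours on chromosome 8 did not share 1 response in the colon, as the values further on describe. Each sequence is the 150 bases before the annotated start site in build GRCr8, on the plus strand in all 7 cases. Capitals mark the AP-1 motif, spelled TGAGTCA or its reverse complement TGACTCA and searched on both strands, and TATAA, searched on the gene's strand.
Mmp13: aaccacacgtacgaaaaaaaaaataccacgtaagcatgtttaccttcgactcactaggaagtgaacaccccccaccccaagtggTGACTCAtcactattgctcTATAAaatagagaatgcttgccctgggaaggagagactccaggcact
Mmp12: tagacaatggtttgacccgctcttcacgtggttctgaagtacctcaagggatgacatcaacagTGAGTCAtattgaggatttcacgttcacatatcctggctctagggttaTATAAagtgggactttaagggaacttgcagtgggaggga
Mmp3: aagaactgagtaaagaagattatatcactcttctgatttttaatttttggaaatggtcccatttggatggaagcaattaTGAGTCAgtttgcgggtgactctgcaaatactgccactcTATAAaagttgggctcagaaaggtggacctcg
Mmp10: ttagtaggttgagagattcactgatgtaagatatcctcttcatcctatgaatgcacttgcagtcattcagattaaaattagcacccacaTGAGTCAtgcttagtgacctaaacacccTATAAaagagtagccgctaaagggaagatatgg
Mmp8: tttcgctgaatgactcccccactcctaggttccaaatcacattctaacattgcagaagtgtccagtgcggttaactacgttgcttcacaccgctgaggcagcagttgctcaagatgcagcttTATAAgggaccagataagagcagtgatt
Mmp7: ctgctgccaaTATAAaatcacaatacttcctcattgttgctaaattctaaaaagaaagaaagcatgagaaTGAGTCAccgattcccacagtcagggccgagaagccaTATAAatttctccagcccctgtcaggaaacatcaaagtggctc
Mmp11: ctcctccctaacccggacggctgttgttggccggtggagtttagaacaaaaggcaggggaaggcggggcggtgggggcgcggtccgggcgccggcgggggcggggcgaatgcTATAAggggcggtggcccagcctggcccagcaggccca

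The windows were chr8:12782679-12782828 for Mmp13, chr8:12866502-12866651 for Mmp12, chr8:12925131-12925280 for Mmp3, chr8:12974557-12974706 for Mmp10, chr8:13008740-13008889 for Mmp8, chr8:13132893-13133042 for Mmp7 and chr20:12730134-12730283 for Mmp11. An AP-1 match began 66 bases before the start site in Mmp13, 87 in Mmp12, 71 in Mmp3, 61 in Mmp10 and 80 in Mmp7. Mmp8 and Mmp11 held no match to these letters in the 250 bases before the start site. The TATAA nearest the start site began between 28 and 47 bases before it in all 7. Over the same 250 bases, 5 of the 7 members held the AP-1 letters and 7 of 7 held TATAA, against 4.05% and 16.7% of the 33469 promoters in the table, and 5 of 7 held both, against 0.738%. Some of these genes are neighbouring copies of 1 ancestor, so they are not independent examples, and a match is a description of the letters and not of binding.

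Values are log2 signals. As deposited, the median of the TNBS arrays lay between 5.02 and 5.07 and that of the control arrays between 4.27 and 4.30, a mean difference of 0.76, so levels against control are given after quantile normalization across the 18 arrays. The words rose and fell are kept, against control, for genes where limma's Benjamini-Hochberg adjusted p over all 31042 probe sets was under 0.05 in the same direction on quantile-normalized and on deposited values, so that small falls against control could not be called. Changes between TNBS days rest on the deposited values. The array of day 2 replicate 1 stood apart: over all probe sets its mean correlation was 0.987 to arrays of day 14 and 0.970 to its own day's other arrays. The day 2 differences from control of the members called on any day are therefore also given without it. The 3' minus 5' difference of the Gapdh control probe sets was 0.356 to 0.718 on TNBS arrays and -0.156 to 0.144 on control arrays, and that of beta-actin was 0.848 to 1.43 on TNBS arrays and 1.87 to 2.26 on control arrays. These values of RNA quality and labelling moved with the treatment, and their part in the differences from control was not tested. In the control arrays 11 of 11 epithelial and 7 of 7 smooth muscle markers lay above the 75th percentile of all probe sets, 0 of 6 neutrophil markers did, and 6 of 6 bone and cartilage markers lay below the median.

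Of the 10 metalloproteinases, 3 rose against control on day 2, 6 on day 5, 8 on day 7 and 1 on day 14. The neutrophil enzymes Mmp8 and Mmp9 and the membrane-bound Mmp14 were higher from day 2 on. Mmp2, Mmp12 and Mmp13 joined them on day 5, and Mmp3 and Mmp10 on day 7. On day 14 Mmp14 was the only member called, while the arrays of Mmp8 and, on its brighter probe set, Mmp9 still lay above all control arrays. With only the day 14 and control arrays in the fit, 4 members were called on day 14, Mmp14 and also Mmp8 (adjusted p = 0.0236), Mmp13 (0.0255) and Mmp9 (0.0315). The share of all probe sets called in that smaller fit is not given here, so its count of 4 has no background to be set against. In the fit to all arrays, 9.13% of all probe sets were called higher on day 2, 12.1% on day 5, 12.4% on day 7 and 5.61% on day 14. No member was called lower than control on any day, where 0.522%, 1.09%, 1.07% and 0.135% of all probe sets were on days 2, 5, 7 and 14, and 0 members were lower by limma at an unadjusted p under 0.05. The median difference of the 10 members from control was 0.65 on day 2, 1.20 on day 5, 1.95 on day 7 and 0.35 on day 14, while the median over all probe sets lay between -0.04 and -0.01. In the control arrays Mmp8, Mmp9, Mmp3 and Mmp7 lay at percentiles 11.3, 13.4, 19.4 and 22 of all probe sets and Mmp13 at percentile 31.9, with no detection calls in the deposited table, so for these genes the fold over control may be a lower bound. The counts leaned on single rats: without day 2 replicate 2 the day 2 count was 1, without day 5 replicate 2 or 3 the day 5 count was 3, and without day 7 replicate 1 the day 7 count was 5. Without day 2 replicate 1 the day 2 count was 4. Mmp14 on all 4 days, Mmp9 on days 5 and 7, and Mmp2, Mmp12 and Mmp13 on day 7 kept their calls in every leave-one-out fit.

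**Figure D1:**
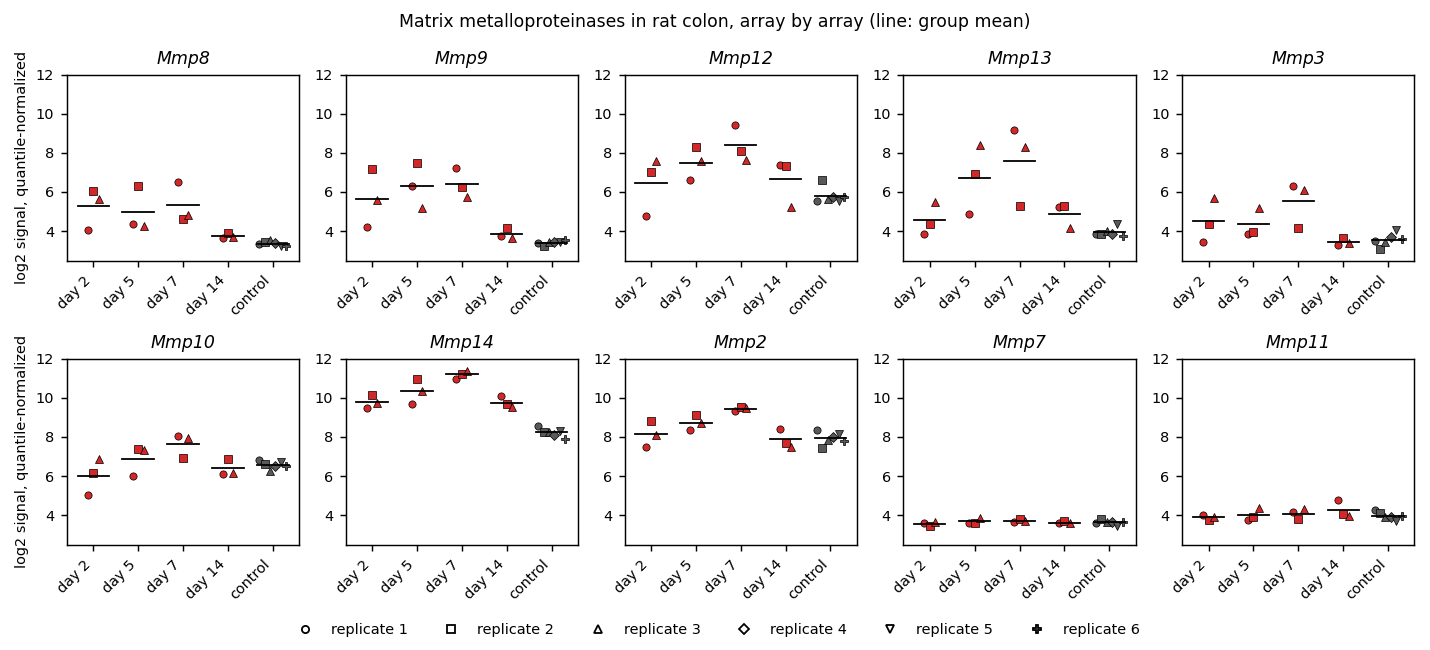
Quantile-normalized log2 signal of each metalloproteinase (y axis) on each of the 18 arrays, by group (x axis: TNBS days 2, 5, 7 and 14 in red, control in grey). Points are single arrays, symbols give the replicate number and bars give group means. Genes with 2 probe sets are shown by the brighter one. On it Mmp14 is above all control arrays on every TNBS array, which does not hold for its second probe set. Mmp7 and Mmp11 stay near the control arrays throughout. Heights of different genes come from different probes and are not comparable.

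Mmp9, gelatinase B, a type IV collagen and gelatin degrading enzyme stored in neutrophil granules and also made by macrophages, had day 2 values of 4.23, 7.15 and 5.59, day 5 values of 6.30, 7.46 and 5.18, day 7 values of 7.23, 6.26 and 5.72 and day 14 values of 3.76, 4.18 and 3.65. The 6 control arrays lay between 3.24 and 3.54, with a median of 3.44. All TNBS arrays were above all control arrays, those of day 14 by a small margin, and the widest scatter within a day was on day 2. Relative to control Mmp9 rose by 2.24 ± 0.51 (log2, SE) on day 2, a 4.73-fold difference, with limma adjusted p = 0.00681. The rise was 2.90 ± 0.51 on day 5 (7.45-fold, adjusted p = 0.000807) and 2.99 ± 0.51 on day 7 (7.93-fold, adjusted p = 0.000536). On day 14 the difference was 0.45 ± 0.51, with adjusted p = 0.63. Mmp9 was thus called on the first 3 sampling days and not on the last. The second Mmp9 probe set, 1369166_at, showed smaller differences of 1.03 on day 2 (adjusted p = 0.14), 1.82 on day 5 (adjusted p = 0.00955), 1.62 on day 7 (adjusted p = 0.017) and -0.03 on day 14. The probe sets of this gene therefore differ on day 2, where only 1398275_at passed the test. They also differ on day 14, where the arrays of 1369166_at lay between 3.29 and 3.35, within its control range of 3.25 to 3.44. Without day 2 replicate 1 the day 2 rise was 2.96 (adjusted p = 0.000787), and without day 2 replicate 2 the call was lost (adjusted p = 0.0553).

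Mmp8, neutrophil collagenase, which cuts fibrillar collagen and is stored in neutrophil granules, had day 2 values of 4.08, 6.07 and 5.63, day 5 values of 4.37, 6.30 and 4.25, day 7 values of 6.49, 4.63 and 4.85 and day 14 values of 3.63, 3.93 and 3.73. The control arrays ranged from 3.24 to 3.52, with a median of 3.36. No TNBS array overlapped with the controls, and on each of days 5 and 7 a single rat stood well above the other two. The rise over control was 1.90 ± 0.47 on day 2 (adjusted p = 0.0113), 1.61 ± 0.47 on day 5 (adjusted p = 0.0197) and 1.96 ± 0.47 on day 7 (3.89-fold, adjusted p = 0.0058). On day 14 the difference was 0.40 ± 0.47 (adjusted p = 0.645). Without day 2 replicate 1 the day 2 rise was 2.49 (adjusted p = 0.00196). The call was lost on day 2 without replicate 2 (adjusted p = 0.0816) or replicate 3 (0.065), on day 5 without replicate 2 (0.165) and on day 7 without replicate 1 (0.0544).

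Of the neutrophil markers, S100a8, S100a9 and Csf3r rose on days 2, 5 and 7, and Cxcr2 on days 5 and 7. Camp and Ncf1 did not pass the test on any day, with differences of -0.46 to -0.16 for Camp and 0.08 to 0.20 for Ncf1. The mean of the 6 measured markers of 10 listed, S100a8, S100a9, Csf3r, Cxcr2, Camp and Ncf1, was set against the control mean, with day 2 differences of 1.47, 3.07 and 2.91, day 5 differences of 2.85, 3.79 and 3.05, day 7 differences of 4.24, 3.31 and 3.73, day 14 differences of 0.746, 1.25 and 0.568, and control arrays between -0.152 and 0.127. Of the 6, 3 rose on day 2, 4 on day 5, 4 on day 7 and 2 on day 14. Over all probe sets the shares called higher were 9.13%, 12.1%, 12.4% and 5.61% on these days. The same shares apply to the counts of macrophage and fibroblast markers below. Mpo and Elane had no single-symbol probe set. In whole tissue, more cells of a type and more RNA per cell cannot be told apart, and the part of neutrophil numbers in the Mmp8 and Mmp9 levels was not tested.

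Mmp12, macrophage elastase, had day 2 values of 4.77, 7.03 and 7.59, day 5 values of 6.59, 8.28 and 7.57, day 7 values of 9.43, 8.10 and 7.64 and day 14 values of 7.38, 7.31 and 5.25. Controls lay between 5.52 and 6.60, with a median of 5.68, the highest being replicate 2. Day 7 lay wholly above the controls, whereas days 2 and 14 each held 1 rat below every control. Mmp12 rose by 1.68 ± 0.60 on day 5 (3.21-fold, adjusted p = 0.0488) and by 2.59 ± 0.60 on day 7 (6.03-fold, adjusted p = 0.00443). The difference was 0.67 ± 0.60 on day 2 (adjusted p = 0.48), or 1.51 without replicate 1 (adjusted p = 0.0683), and 0.85 ± 0.60 on day 14 (adjusted p = 0.4). The day 5 call is a weak one: it was lost without day 5 replicate 2 (adjusted p = 0.222) or 3 (0.123), and without control replicate 1 (0.0754), 3 (0.0745), 4 (0.0741), 5 (0.0754) or 6 (0.0716). Of the 10 measured macrophage markers 9 rose on day 2, when Mmp12 was not called, 9 on day 5, 10 on day 7 and 1 on day 14, with a mean above control of 0.841 to 2.17 on day 2, 1.57 to 2.85 on day 5, 2.29 to 2.57 on day 7 and 0.0592 to 0.848 on day 14, against -0.119 to 0.0508 on control arrays. Their part in the Mmp12 level was not tested.

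Mmp13, collagenase 3, which cuts fibrillar collagens, had day 2 values of 3.87, 4.36 and 5.48, day 5 values of 4.90, 6.90 and 8.41, day 7 values of 9.16, 5.30 and 8.29 and day 14 values of 5.24, 5.26 and 4.14. The control arrays ranged from 3.76 to 4.37, with a median of 3.84. Every array of days 5 and 7 was above the controls, and the rats of a day differed widely, with day 7 replicate 2 far below the other two. The rise was 2.80 ± 0.73 on day 5 (6.95-fold, adjusted p = 0.0103) and 3.64 ± 0.73 on day 7 (12.5-fold, adjusted p = 0.00167). On day 2 the difference was 0.63 ± 0.73 (adjusted p = 0.594), or 0.98 without day 2 replicate 1 (adjusted p = 0.443). On day 14 it was 0.94 ± 0.73 (adjusted p = 0.45). The day 5 call was lost without day 5 replicate 3 (adjusted p = 0.0813).

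Mmp3, stromelysin 1, which degrades proteoglycans and activates other proMMPs, had day 2 values of 3.44, 4.36 and 5.70, day 5 values of 3.87, 3.95 and 5.20, day 7 values of 6.33, 4.14 and 6.09 and day 14 values of 3.29, 3.66 and 3.42. The control arrays ranged from 3.10 to 4.07, with a median of 3.54. A single rat was high on day 5 and a pair of rats on day 7, and day 14 lay within the control range. Mmp3 rose on day 7 by 1.95 ± 0.48 (3.86-fold, adjusted p = 0.00646), a call lost without day 7 replicate 1 (adjusted p = 0.0527). The differences on the other days were 0.93 ± 0.48 on day 2 (adjusted p = 0.19), 0.77 ± 0.48 on day 5 (adjusted p = 0.257) and -0.11 ± 0.48 on day 14. Without day 2 replicate 1 the day 2 difference was 1.46, which passed the test (adjusted p = 0.0472).

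Mmp10, stromelysin 2, a close relative of Mmp3, had day 2 values of 5.01, 6.15 and 6.85, day 5 values of 6.00, 7.36 and 7.31, day 7 values of 8.04, 6.92 and 7.94 and day 14 values of 6.12, 6.86 and 6.18. Controls lay between 6.28 and 6.83, with a median of 6.58. Day 7 lay above the controls, its replicate 2 only just, while day 2 replicate 1 was the lowest of all arrays. The rise on day 7 was 1.05 ± 0.37 (2.07-fold, adjusted p = 0.0424). It was lost without day 7 replicate 1 (adjusted p = 0.178) or 3 (0.158), and without control replicate 2 (0.0567), 3 (0.0734), 4 (0.0672), 5 (0.0548) or 6 (0.064). The difference was -0.57 ± 0.37 on day 2 (adjusted p = 0.301), or -0.08 without day 2 replicate 1 (adjusted p = 0.909), 0.31 ± 0.37 on day 5 (adjusted p = 0.575) and -0.19 ± 0.37 on day 14.

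Mmp14, a membrane-anchored metalloproteinase that cuts collagen at the cell surface and activates proMmp2, had day 2 values of 9.48, 10.15 and 9.74, day 5 values of 9.70, 10.94 and 10.32, day 7 values of 10.98, 11.22 and 11.38 and day 14 values of 10.07, 9.66 and 9.50. The control arrays ranged from 7.90 to 8.58, with a median of 8.27. All 12 TNBS arrays were above all 6 control arrays, day 7 was the highest and the tightest, and the ranges of days 14 and 2 overlapped. The rise was 1.56 ± 0.22 on day 2 (2.94-fold, adjusted p = 0.000283), 2.09 ± 0.22 on day 5 (4.24-fold, adjusted p = 1.66e-05), 2.96 ± 0.22 on day 7 (7.79-fold, adjusted p = 7.19e-07) and 1.51 ± 0.22 on day 14 (2.85-fold, adjusted p = 0.000487). No single array carried these calls: each of the 4 was kept with any 1 array left out, and the day 2 rise was 1.71 without replicate 1. The second Mmp14 probe set, 1378225_at, gave smaller differences, 0.18 on day 2 (adjusted p = 0.542), 0.63 on day 5 (adjusted p = 0.0186), 1.02 on day 7 (adjusted p = 0.000782) and 0.16 on day 14 (adjusted p = 0.626). The rises of days 2 and 14 therefore rest on 1367860_a_at alone.

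Mmp2, gelatinase A, made mainly by fibroblasts and other stromal cells, had day 2 values of 7.48, 8.82 and 8.09, day 5 values of 8.33, 9.11 and 8.70, day 7 values of 9.33, 9.53 and 9.46 and day 14 values of 8.41, 7.69 and 7.51. Controls lay between 7.45 and 8.35, with a median of 7.93. Only day 7 was wholly above the controls, and its 3 rats lay close together. Mmp2 rose by 0.78 ± 0.27 on day 5 (1.72-fold, adjusted p = 0.0403) and by 1.51 ± 0.27 on day 7 (2.85-fold, adjusted p = 0.000673), and differed by 0.20 ± 0.27 on day 2 and -0.06 ± 0.27 on day 14. Without day 2 replicate 1 the day 2 difference was 0.52 (limma adjusted p = 0.181). The day 5 call was lost without day 5 replicate 2 (adjusted p = 0.206) or 3 (0.095), and without control replicate 2 (0.0735), 3 (0.0638), 4 (0.0553) or 6 (0.0672). The second Mmp2 probe set, 1369825_at, lay between 3.77 and 4.10 on TNBS arrays and between 3.58 and 4.16 on control arrays and was not called on any day. Fibroblast markers, 9 of 9 measured, stood above the control mean by 0.922 to 1.28 on day 7, by 0.297 to 0.953 on day 5, by -0.110 to 0.644 on day 2 and by -0.174 to 0.338 on day 14, against -0.182 to 0.163 on control arrays. Of the 9, 1 rose on day 2, 5 on day 5, 6 on day 7 and 0 on day 14 (limma; 1 higher and 2 lower at an unadjusted p under 0.05). Postn, periostin, a matrix protein of fibroblasts, fell on day 2 by 0.86 on the log2 scale (adjusted p = 0.00668). The markers' part in the Mmp2 and Mmp14 levels was not tested.

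Mmp7, matrilysin, an epithelial metalloproteinase, lay between 3.47 and 3.85 on the TNBS arrays and between 3.47 and 3.78 on the control arrays, and its largest difference was 0.08 ± 0.08 on day 7 (adjusted p = 0.502). Mmp11, stromelysin 3, a stromal enzyme known from wound and tumour stroma, lay between 3.75 and 4.77 on the TNBS arrays and between 3.71 and 4.26 on the control arrays, and its largest difference was 0.29 ± 0.18 on day 14 (adjusted p = 0.324). For both genes all groups overlapped. Both probe sets were dim: Mmp7 fell among the lowest 25% of probe sets by mean, and Mmp11, with Mmp3 and Mmp8, among the lowest 50%, so a small change in RNA could have gone unseen. A filter that left out the lowest 25% kept 9 members, and one that left out the lowest 50% kept 6.

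**Figure D2:**
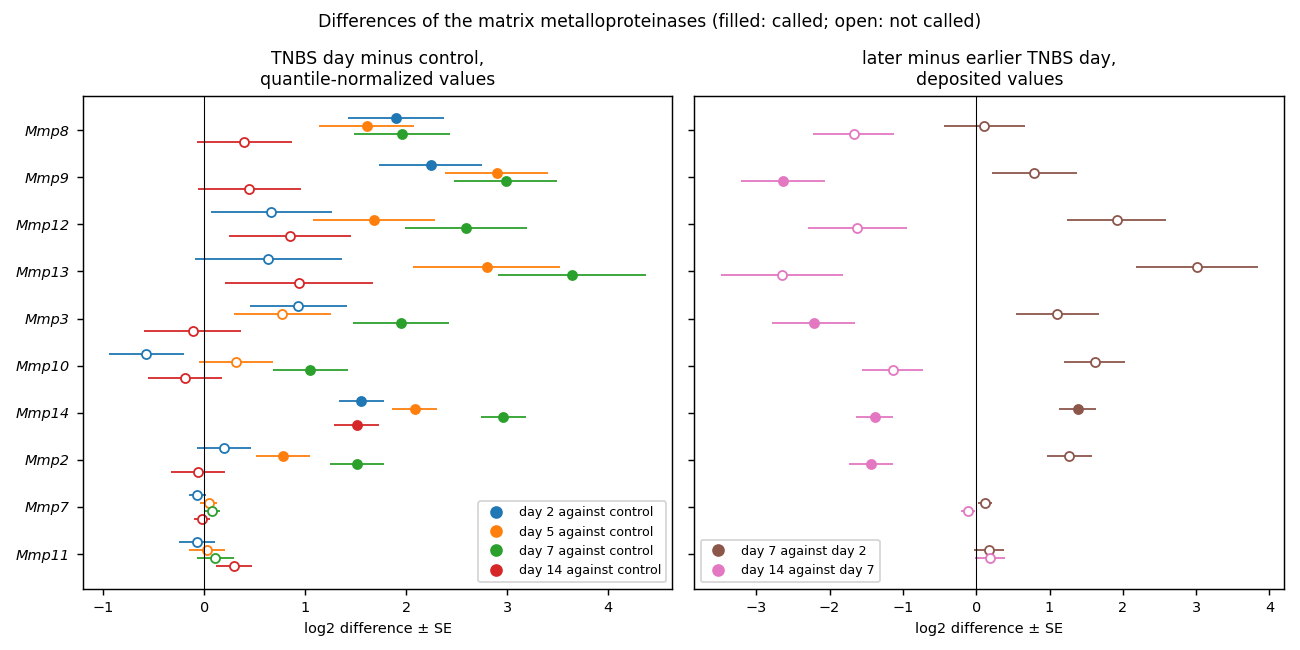
Differences of the 10 metalloproteinases on the log2 scale (x axis), with bars of 1 SE, filled where called and open where not. On the left each TNBS day is set against control on quantile-normalized values, where Mmp13 reaches 3.64 and Mmp9 2.99 on day 7; on the right later TNBS days are set against earlier ones on deposited values, where Mmp9 has the largest called fall between days 7 and 14 (-2.63).

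The differences among the TNBS days are between TNBS arrays, and the control arrays enter through the estimate of spread. Among the 4 days, the F test of limma called 3 members, Mmp14 (adjusted p = 0.0148), Mmp2 (0.044) and Mmp9 (0.0468), where 2.34% of all probe sets were called. The second probe sets of these 3 genes were not called (adjusted p = 0.123 for Mmp14, 0.936 for Mmp2 and 0.169 for Mmp9). Leaving out single arrays ended the call of Mmp14 without day 7 replicate 3 (adjusted p = 0.0735), while those of Mmp2 and Mmp9 were lost in 7 and 8 of the leave-one-out fits, with adjusted p up to 0.126 for Mmp2 and 0.166 for Mmp9. Without day 7 replicate 2, the rat low in Mmp13 and Mmp3, both of these genes were called (adjusted p = 0.0109 for Mmp13 and 0.0237 for Mmp3), and without day 5 replicate 1 Mmp13 was called too (0.036).

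Day 14 differed from day 7 in 4 members, all lower, where 3.08% of all probe sets were called lower and 1.42% higher. Mmp14 had deposited values of 10.28, 9.82 and 9.65 on day 14 and 11.18, 11.22 and 11.52 on day 7. It fell by 1.39 ± 0.25 on the log2 scale (adjusted p = 0.00547), a call kept with any 1 array left out. Its second probe set differed by -0.79 ± 0.23 and was not called (adjusted p = 0.0638). Mmp2 had 8.70, 7.94 and 7.75 on day 14 and 9.47, 9.61 and 9.62 on day 7. In both genes the days did not overlap. Mmp2 fell by 1.44 ± 0.30 (adjusted p = 0.0137), which was lost without day 14 replicate 2 (0.059) or 3 (0.0726), and its second probe set differed by -0.13 (0.708).

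Mmp9 had 3.89, 4.38 and 3.84 on day 14 and 7.48, 6.47 and 6.05 on day 7, and fell by 2.63 ± 0.57 (adjusted p = 0.0162). Mmp3 had 3.40, 3.82 and 3.58 on day 14 and 6.62, 4.39 and 6.44 on day 7, and fell by 2.22 ± 0.57 (adjusted p = 0.036). The day 14 arrays of both genes lay below all day 7 arrays, and in Mmp3 the margin came from day 7 replicates 1 and 3. The Mmp9 call was lost without day 7 replicate 1 (adjusted p = 0.0961), day 14 replicate 1 (0.0583) or day 14 replicate 3 (0.0677), and the second Mmp9 probe set differed by -1.77 (0.0863). The Mmp3 call was lost without day 7 replicate 1 (0.181) or 3 (0.12), and without day 14 replicate 1 (0.114), 2 (0.0777) or 3 (0.103).

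The other members did not pass this test. Mmp13 differed by -2.65 ± 0.83 between days 14 and 7 (adjusted p = 0.0856), and passed it without day 7 replicate 2 (0.00624). The differences were -1.67 for Mmp8 (adjusted p = 0.103), -1.62 for Mmp12 (0.196) and -1.14 for Mmp10 (0.143). Over the 10 members the median difference of day 14 from day 7 was -1.53, against 0.03 over all probe sets.

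Between days 7 and 2, Mmp14 was the member called, where 0.744% of all probe sets were called higher and 0.171% lower. Its deposited values were 11.18, 11.22 and 11.52 on day 7 and 9.67, 10.27 and 9.83 on day 2, with no overlap, and it rose by 1.38 ± 0.25 (adjusted p = 0.0174). The call was lost without day 2 replicate 1 (adjusted p = 0.0765) or 3 (0.0552), and without day 7 replicate 1 (0.06) or 3 (0.0778). The second Mmp14 probe set differed by 0.84 ± 0.23 and was not called (adjusted p = 0.1). Without day 7 replicate 2, Mmp13 (0.00698) and Mmp10 (0.0265) were called too, and without day 2 replicate 2, Mmp2 was (0.0261). No member was called between days 5 and 2, 14 and 2, 7 and 5, or 14 and 5 by limma, where at an unadjusted p under 0.05 there were 2 higher, 2 lower, 3 higher and 4 lower. Over all probe sets 0.00966% were called higher and 0% lower between days 5 and 2, 0.00322% higher and 0.0161% lower between days 14 and 2, 0.0161% higher and 0.00322% lower between days 7 and 5, and 0.271% higher and 0.648% lower between days 14 and 5. The nearest was Mmp9, which differed by -2.51 ± 0.57 between days 14 and 5 (adjusted p = 0.051), and was called without day 5 replicate 3 (0.0395). Between days 14 and 2 it was called without day 2 replicate 1, with a difference of -2.56 (0.0313).

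Rats of the same day differed in which metalloproteinases were high, and the members fell into pairs and a trio in this respect. The groupings were noticed in the values and are given as a description over the 12 TNBS arrays, which share 1 normalization, with no test. Mmp8 and Mmp9 had a Pearson r of 0.886 over the 12 arrays and 0.885 after each day's mean was taken away. Mmp2 and Mmp14 had r of 0.953, and 0.864 within days. Mmp3, Mmp10 and Mmp13 had within-day r of 0.875 (Mmp3 with Mmp10), 0.863 (Mmp3 with Mmp13) and 0.844 (Mmp10 with Mmp13). Between these sets the within-day values were lower, running from 0.0438 (Mmp9 with Mmp13) to 0.611 (Mmp8 with Mmp10). Mmp12, in none of the sets, had 0.726 with Mmp10 and 0.70 with Mmp8. Without day 2 replicate 1, over 11 arrays, the within-day r was 0.826 for Mmp8 with Mmp9, 0.874 for Mmp2 with Mmp14, 0.823 for Mmp3 with Mmp10, 0.894 for Mmp3 with Mmp13 and 0.909 for Mmp10 with Mmp13. Mmp10 and Mmp8, neighbours in the gene order on chromosome 8, had 0.611 over all 12 arrays and 0.412 without day 2 replicate 1, against 0.885 and 0.826 for Mmp8 with Mmp9, which lies on chromosome 3. The trio of Mmp3, Mmp10 and Mmp13, with 0.844 to 0.875 over all 12 arrays, lies in the same stretch of chromosome 8. The relation of r to gene position was not tested.

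**Figure D3:**
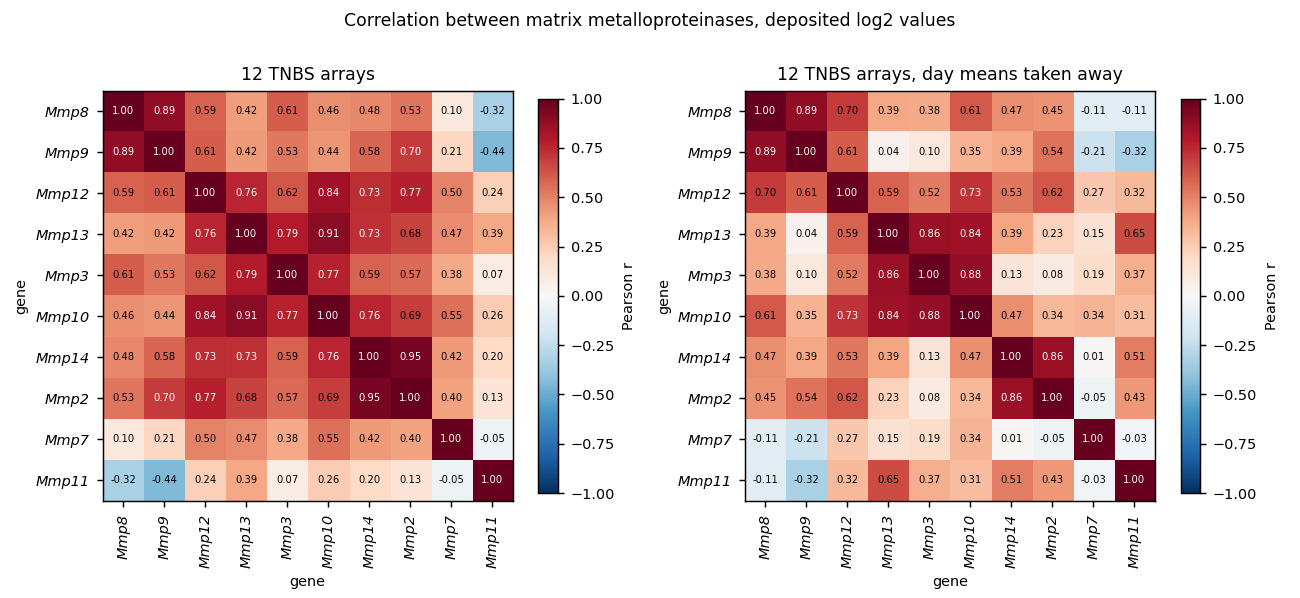
Pearson correlation between the metalloproteinases (rows and columns) over the 12 TNBS arrays on deposited log2 values, on the left as measured and on the right after each day's mean was taken away. Dark red blocks mark Mmp8 with Mmp9 (0.89 within days), Mmp13 with Mmp3 and Mmp10 (0.84 to 0.88) and Mmp14 with Mmp2 (0.86).

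Among 12118 other genes, the 3 with a profile over the 12 TNBS arrays most like that of Mmp9 were Lilrb2 (r = 0.978), Pglyrp1 (0.944), a peptidoglycan recognition protein of neutrophil granules, and Clec4a1 (0.943). Those of Mmp8 were Hsd11b1 (0.939), Emp3 (0.937) and Mmp19 (0.932). Mmp2 was followed by Tgfbi (0.964), Fbn1 (0.964), which encodes the microfibril protein fibrillin, and Serpinf1 (0.963), and Mmp14 by Iqsec1 (0.974), Col5a3 (0.972), a type V collagen chain, and Masp1 (0.964). Mmp3 was nearest to Fam89b (0.934), Ch25h (0.927) and Tgfb1 (0.923), Mmp10 to Tmem119 (0.909), Mmp13 (0.906) and Pgs1 (0.904), and Mmp13 to Lrrc8c (0.948), Scn3b (0.944) and Nrarp (0.943). Mmp12 was nearest to Taf11l1 (0.939), Gsap (0.929) and Pip4k2a (0.929). For the members not called on any day the highest values were 0.849 for Mmp7 with Pidd1 and 0.901 for Mmp11 with Elp2, the latter close to the 0.909 of Mmp10. All of these are the highest of many values over 12 arrays, with day means left in, and none was tested.

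Of 14 other metalloproteinase genes listed, 7 had a single-symbol probe set, and Mmp1, Mmp1a, Mmp1b, Mmp20, Mmp21, Mmp25 and Mmp27 had none. Of the 7, 0 rose on days 2 and 5, 2 on day 7 and 0 on day 14 by limma, and at an unadjusted p under 0.05 these counts were 0 on day 2, 1 on day 5, 2 on day 7 and 0 on day 14. For this list and those that follow, 9.13% of all probe sets were called higher on day 2 and 12.1% on day 5. The shares were 12.4% on day 7 and 5.61% on day 14, and 3.08% were called lower on day 14 than on day 7. Mmp23 rose on day 7 by 1.08 ± 0.18 (adjusted p = 0.000499) and fell by 1.13 ± 0.19 between days 7 and 14 (adjusted p = 0.00351). Mmp19 rose on day 7 by 0.38 ± 0.13 (adjusted p = 0.0376), a call lost in 7 leave-one-out fits, with adjusted p up to 0.187 without day 7 replicate 1. Mmp15 and Mmp17, which are membrane-bound like Mmp14, differed by -0.07 and 0.02 on day 7.

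Of the 7 inhibitors, 2 rose on day 2, 4 on day 5, 4 on day 7 and 0 on day 14 (limma; 0 higher and 2 lower at an unadjusted p under 0.05), and 4 fell between days 7 and 14. Timp4 and Reck went the other way on quantile-normalized values alone, Timp4 on all 4 days (-0.64 on day 7, adjusted p = 0.000872) and Reck on day 5 (-0.63, adjusted p = 0.0149), while their deposited differences were above 0, so no fall was called. Timp1, the inducible tissue inhibitor of metalloproteinases, rose by 3.80 ± 0.53 on day 2 (adjusted p = 0.00023) and by 3.25 ± 0.53 on day 7 (adjusted p = 0.00037). A2m, alpha-2-macroglobulin, an acute phase protein of the rat that traps proteases, differed by 1.66 ± 0.71 on day 2 (adjusted p = 0.118), or 2.61 without day 2 replicate 1 (adjusted p = 0.0149), and rose by 4.80 ± 0.71 on day 5 (adjusted p = 0.000229) and 5.87 ± 0.71 on day 7 (adjusted p = 3.65e-05). Timp2, which takes part in the activation of proMmp2 by Mmp14, rose by 0.61, 0.60 and 0.82 on days 2, 5 and 7, with a SE of 0.15, its day 2 call being lost without day 2 replicate 2 (adjusted p = 0.0941) or 3 (0.0664) and its day 5 call without day 5 replicate 2 (0.0596). Tfpi2, an inhibitor of plasmin and related proteases, rose by 1.72 on day 5, a call lost without day 5 replicate 2 (adjusted p = 0.126), and 3.01 on day 7, with a SE of 0.48. The 4 falls between days 7 and 14 were all lost without day 7 replicate 1, and without replicate 2 of the day the count of rises was 1 on day 2 and 2 on day 5.

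Of 12 measured activators and binding proteins, 6 rose on day 2, 6 on day 5, 7 on day 7 and 3 on day 14, and 3 fell between days 7 and 14. Without day 2 replicate 1 the count on day 2 was 4, and without day 2 replicate 3 it was 2. Without day 7 replicate 1 the day 7 count was 5. The count of falls was 2 in every leave-one-out fit. Lcn2, lipocalin 2, which binds Mmp9 in neutrophil granules and is also made by inflamed epithelium, rose by 5.15 ± 0.66 on day 2, 6.05 ± 0.66 on day 5 and 6.98 ± 0.66 on day 7 (adjusted p = 4.64e-06), and differed by 1.61 ± 0.66 on day 14 (adjusted p = 0.129). Plaur, the receptor of urokinase, rose by 1.45, 2.29 and 3.10 on days 2, 5 and 7, with a SE of 0.31, and Plau, urokinase itself, rose by 1.43 on day 5 and 1.02 on day 7, a day 7 call lost without day 7 replicate 1 (adjusted p = 0.164). Sdc1, a cell-surface proteoglycan that metalloproteinases shed, did not pass the test against control on any day, with differences between -0.37 and 0.21. These values are from its brighter probe set, which limma's F test among the TNBS days did not call (adjusted p = 0.136). The F test did call a second, dimmer Sdc1 probe set (adjusted p = 0.0155), whose differences from control are not given here.

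Of 11 measured matrix substrates, 2 rose on day 2, 9 on day 5, 10 on day 7 and 0 on day 14 (limma; 0 higher and 1 lower at an unadjusted p under 0.05), and 9 fell between days 7 and 14. The count on day 2 was 4 without replicate 1 and 1 without replicate 2, and without day 5 replicate 2 that on day 5 was 5. Col1a1, a chain of type I collagen, differed by 0.03 ± 0.39 on day 2, rose by 1.72 ± 0.39 on day 5 (adjusted p = 0.00414) and 2.29 ± 0.39 on day 7 (adjusted p = 0.00047), and differed by 0.11 ± 0.39 on day 14. Col1a2 rose by 1.89 and Col4a1, of basement membranes, by 1.78 on day 7, where on day 5 the rise of Col4a1, 1.12, was lost without day 5 replicate 2 (adjusted p = 0.0659). Vcan, the proteoglycan versican, was already higher on day 2, by 2.88 ± 0.58 (adjusted p = 0.0031), and by 3.88 ± 0.58 on day 7. The number of falls between days 7 and 14 ranged from 4 to 9 when single arrays were left out, the lowest without day 14 replicate 2.

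Of 7 measured cytokines known to induce metalloproteinases, 4 rose on day 2, 7 on day 5, 7 on day 7 and 0 on day 14 (limma; 3 higher at an unadjusted p under 0.05), and 5 fell between days 7 and 14. Il1b rose by 3.52 ± 0.43 on day 2 (adjusted p = 7.64e-05), 5.89 ± 0.43 on day 5 and 6.62 ± 0.43 on day 7 (adjusted p = 3.04e-07), and fell by 5.24 ± 0.47 between days 7 and 14 (adjusted p = 4.89e-05). Tnf differed by 0.77 ± 0.36 on day 2 (adjusted p = 0.147) and rose by 1.67 on day 5 and 2.43 on day 7. These Tnf values come from 1 probe set, which limma's F test among the TNBS days called (adjusted p = 0.0387). A second Tnf probe set of nearly the same brightness was not called by it (adjusted p = 0.695). Both lay among the lowest 50% of probe sets by mean, and the second one's differences from control are not given here. Osm, oncostatin M, differed by 1.63 on day 2 (adjusted p = 0.0601) and rose by 3.13 on day 5 and 4.04 on day 7, and Il1a rose by 1.67, 3.05 and 3.84 on days 2, 5 and 7, the first of these being lost without day 2 replicate 2 (adjusted p = 0.11) or 3 (0.0894). The day 2 count of 4 was 1 without day 2 replicate 3 and 5 without day 2 replicate 1, and the 5 falls were 2 without day 14 replicate 3.

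Of 14 measured transcription factors of metalloproteinase promoters, 2 rose on day 2, 5 on day 5, 7 on day 7 and 1 on day 14, and 4 fell between days 7 and 14. The counts of days 2 and 14 were near the shares over all probe sets, 9.13% and 5.61%. Cebpb rose by 1.40, 2.38 and 3.02 on days 2, 5 and 7, with a SE of 0.33, and its day 2 call was lost without day 2 replicate 2 (adjusted p = 0.0596) or 3 (0.0548). The AP-1 subunit Junb differed by -0.06 ± 0.32 on day 2 and rose by 1.34 ± 0.32 on day 5, a call lost without day 5 replicate 2 (adjusted p = 0.0502), and 1.53 ± 0.32 on day 7, and Fosl2 rose by 0.74 ± 0.18 on day 7. Fosl2 lost that call without day 7 replicate 1 (adjusted p = 0.0599), and without this array the day 7 count was 4 and the count of falls 2. Nfkb1 rose by 0.67 on day 5 and 1.10 on day 7, with a SE of 0.16. Without replicate 2 of the day, the count of rises was 1 on day 2 and 3 on day 5.

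**Figure D4:**
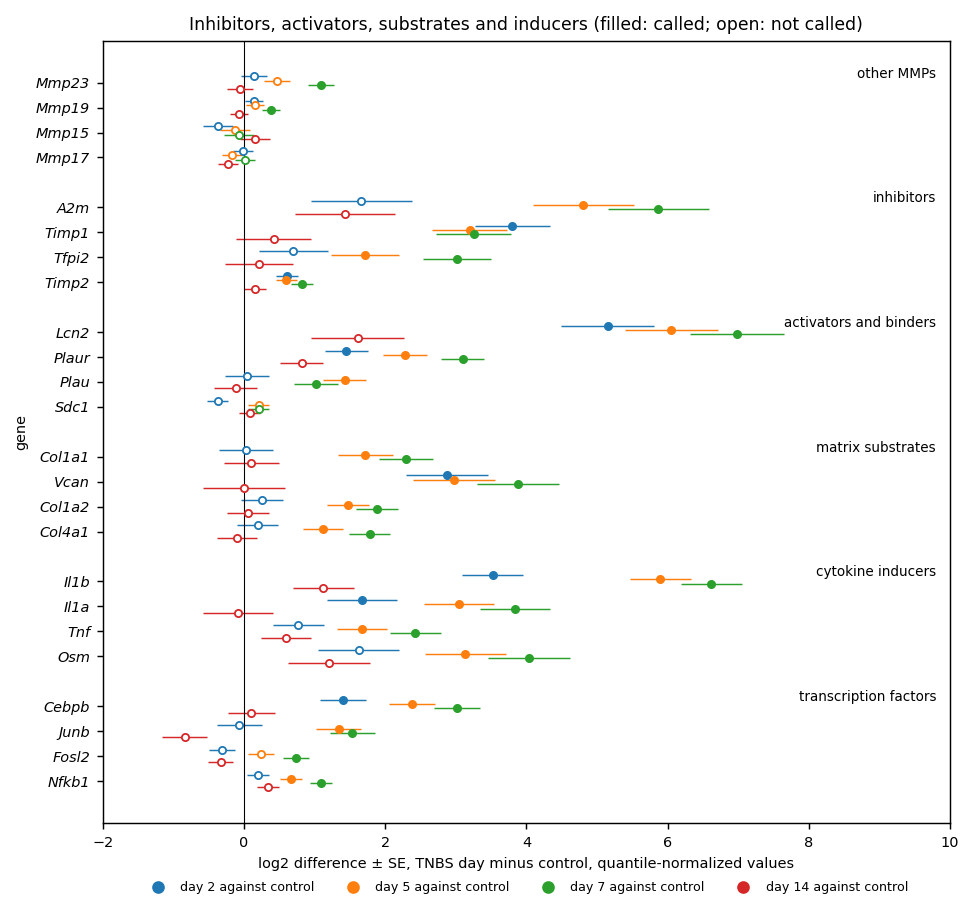
Differences from control on the log2 scale (x axis, quantile-normalized values, bars of 1 SE) of listed inhibitors, activators and binding proteins, substrates, cytokines, transcription factors and other metalloproteinases (y axis), by TNBS day, filled where called. Lcn2 (6.98) and Il1b (6.62) have the largest day 7 differences shown, and no gene shown was called on day 14.

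**Figure D5:**
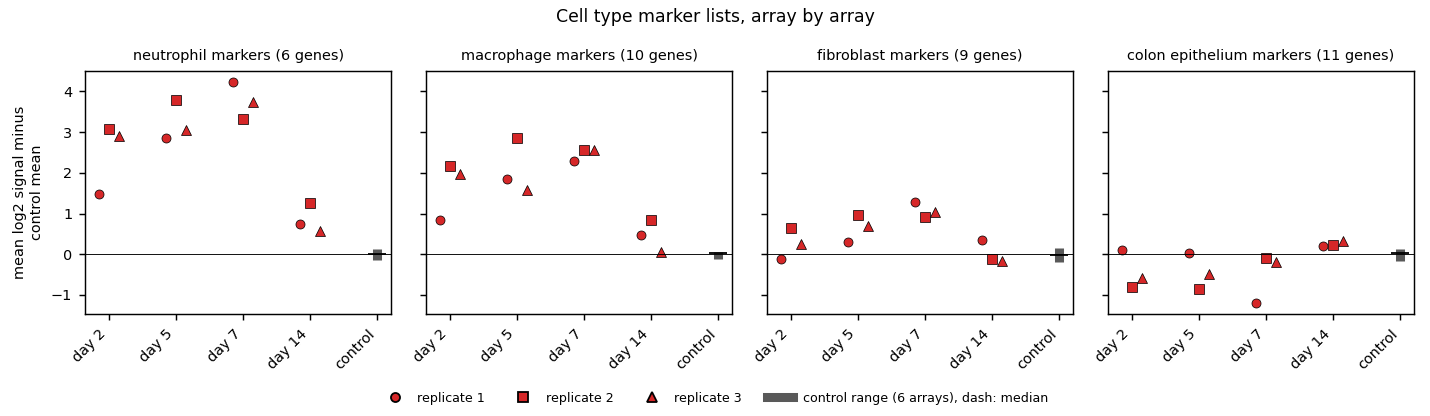
Mean log2 signal of cell type marker lists minus the control mean (y axis) on each TNBS array by day (x axis), with the range of the 6 control arrays in grey. Neutrophil markers reach 4.24 on day 7 and lie between 0.568 and 1.25 on day 14; epithelial markers are lowest, at -1.20, on day 7 replicate 1.

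Some rats stood out both in the marker lists and in the enzymes. On day 7 replicate 1, which had the highest neutrophil mean of all arrays (4.24), Mmp8 read 6.49 against 4.63 and 4.85 in the other rats of that day. The same rat had the lowest epithelial mean, -1.20, where the others of day 7 had -0.0814 and -0.189. Its macrophage mean, 2.29, was the lowest of day 7, while its Mmp12 value, 9.43, was the highest. Its fibroblast mean, 1.28, was the highest of day 7, while its Mmp2 (9.33) and Mmp14 (10.98) values were the lowest of that day. On day 5 replicate 2 the macrophage mean was 2.85, with 1.86 and 1.57 in the other rats of the day. That rat also had the highest neutrophil mean (3.79) and fibroblast mean (0.953) of day 5, and the lowest epithelial mean (-0.845). Mmp2, Mmp8, Mmp9, Mmp10, Mmp12 and Mmp14 were each highest in that rat among the day 5 arrays. Mmp13 was highest on day 5 in replicate 3, where the macrophage mean was lowest of the 3. These are values of single rats, and no test was made of them.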

How the data were processed

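The members and the gene lists were chosen with earlier results of these data known, and the marker and pathway lists are not independent evidence. The deposited log2 values of 31099 probe sets on 18 arrays were used, with no scanner files. Per the series' design text, the authors used affyPLM, a Bioconductor package, for normalization. Its version, its background method and the log base are not given in the sources, and the values range as log2 signals do. No column belonged to another sample (0 of them), and no 2 arrays held identical values.

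For comparisons with control, values were quantile-normalized across the 18 arrays, which removes any shift common to most genes. The array's 57 control probe sets were dropped afterwards. limma 3.58.1 in R 4.3.3 fitted 1 coefficient per group to all arrays with two-sided tests, adjusted by Benjamini-Hochberg over 31042 probe sets. Calls needed an adjusted p under 0.05, against control on both scales. The F test covered the 4 TNBS days. Of the probe sets, 20826 carry 1 symbol, 436 several and 9780 none listed. Where a gene had several single-symbol probe sets, the one of highest mean stands for it. All members are named; of each list, the 4 genes with the smallest F-test p among TNBS days and the 2 with the largest change from control. The correlated genes are the 3 of highest r, leaving out the lowest 25% of probe sets. The fit was tested on simulated data. The number of arrays limits the precision.

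Alternatives were deposited and median-centred values, filters on the lowest 25% or 50%, a threshold of 0.01, replicate number as a block, a fit of only the 2 groups compared, any probe set of a gene in place of the brightest, and leaving out each array.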

Additional observations from a re-analysis of the deposited data

Results flagged for a closer look

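Among the 6 control arrays, Mmp12 read 6.60 on replicate 2, set apart from the other controls, which lay between 5.52 and 5.76. This was 1 of 13 probe sets checked in the control group, and chance alone sets about 1 in 20 such groups apart. Without this array the Mmp12 rise on days 5 and 7 kept its call.

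The difference from control was not the same on all TNBS days for 4 members, each by limma's test between the days, which share the control arrays only through the estimate of spread. Mmp14 was 1.38 higher on day 7 than on day 2 (log2, adjusted p = 0.0174). Between days 14 and 7 the differences were -1.44 for Mmp2 (adjusted p = 0.0137), -2.22 for Mmp3 (0.036), -2.63 for Mmp9 (0.0162) and -1.39 for Mmp14 (0.00547), each lower on day 14. Of these differences, only that of Mmp14 between days 14 and 7 kept its call with any 1 array left out. The second probe sets of Mmp2, Mmp9 and Mmp14 were not called in these comparisons. limma's F test among the TNBS days did not call Mmp3 (adjusted p = 0.156).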

How the results depend on the processing

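On deposited values alone, where the TNBS arrays lie above the controls by 0.76 at the median, 8 members were higher on day 2, 10 on day 5 and 6 on day 14, and differences that passed the test turned positive on day 2 for Mmp11 (0.55), Mmp7 (0.48), Mmp17 (0.81) and Fosl2 (0.49), on day 5 for Mmp17 (0.68), on day 7 for Mmp15 (0.53), and on day 14 for Mmp7 (0.49), Mmp23 (0.79), Mmp2 (0.61), Mmp17 (0.66), Fosl2 (0.47), Plau (0.76) and Mmp19 (0.44). Those of Mmp10 on day 2 (0.20) and day 14 (0.68) and of Mmp3 on day 14 (0.38) turned positive without passing it. The share of all probe sets called on deposited values alone is not given here. These counts therefore cannot be set against the offset between the arrays. Nor are such shares given for the other alternatives below. On median-centred values alone 1 member was lower on day 2 and 1 on day 14, and 1 fell between days 5 and 14. Dropping the dimmest 25% or 50% of probe sets gave 2 members higher on day 7 than on day 2 and 1 lower on day 14 than on day 5, with fewer probe sets tested. At an adjusted p under 0.01, 2 members were higher on day 5, 0 on day 7 against day 2, 1 lower on day 14 against day 7, and 0 were called among days. Same-numbered arrays did not deviate together throughout: r lay between -0.329 and 0.469 over 30 pairs, 13 of them over 0.1, with all 3 pairs over 0.1 between day 14 and control alone (0.251, 0.344 and 0.301), where the block changed no call of a member. With replicate number as a block 2 members were higher on day 5, 0 on day 7 against day 2, 2 lower on day 14 against day 7 and 0 called among days; the calls lost against control were those of Mmp8 on days 2, 5 and 7 (adjusted p = 0.0828, 0.113 and 0.0555), of Mmp2, Mmp12 and Mmp13 on day 5 (0.132, 0.186 and 0.0601) and of Mmp10 on day 7 (0.142). Fitting only the 2 groups compared gave 4 higher on day 14 and 0 on day 7 against day 2. With single arrays left out, members higher than control numbered 1 to 4 on day 2, 3 to 6 on day 5 and 5 to 8 on day 7, those higher on day 7 than day 2 numbered 0 to 3, those lower on day 14 numbered 0 to 1 against day 2, 0 to 1 against day 5 and 1 to 5 against day 7, and 0 to 3 were called among days. Of 1585 values of single members under the alternatives, 1462 kept their side of the threshold, 87 lost a call, 32 gained one and 4 turned sign and passed it, and the cause was not tested. Of the 1462, 53 turned sign with no call under either setting, 41 of them with a single array left out.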
